A study of Mus musculus with 48 samples.

Results

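A set of 10 genes of hepatic iron regulation was followed across 4 doses of dichloroacetic acid (DCA) in mouse liver. The genes were taken from a list of names, Hamp, Bmp6, Smad7, Id1, Hfe, Tfr2, Tfrc, Trf, Slc40a1 and Fth1. These genes and the gene lists used below were chosen with earlier results of these data known. Their counts beside the shares of all genes are therefore a description and not a test. The table of frozen (FROZ) libraries listed 8 of the 10 among 11275 genes, and the table of formalin-fixed paraffin-embedded (FFPE) libraries listed 7 of the 10 among 6673 genes. Id1 and Tfr2 are not analysed here because neither table listed them, and Bmp6 was analysed in FROZ only. Male B6C3F1 mice, 4 weeks of age at the time of study, received DCA in their drinking water for 6 days at 0, 1.0, 2.0 or 3.5 g/L, with estimated daily intakes of 0 (vehicle control), 198, 313 and 427 mg/kg-d. There were 6 mice at each dose, and each of the 24 mice gave 1 FROZ and 1 FFPE library, so that 48 libraries were compared. FROZ material came from left lateral caudate and right medial lobes, and FFPE material from left lateral and right medial lobes. FROZ libraries were made from RNA isolated earlier, and FFPE libraries from lysed sections without RNA isolation. Preservation, lobe and RNA isolation therefore cannot be told apart. All mice shared strain, sex and age, and no genotype differed between the groups.

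Iron balance is governed largely from the liver. Hepatocytes secrete hepcidin, the product of Hamp, which binds the iron exporter ferroportin (Slc40a1) on macrophages, enterocytes and hepatocytes and causes its degradation. Iron raises Hamp transcription through BMP6 from sinusoidal endothelial cells, SMAD proteins and the membrane protein HFE, while inside cells the iron regulatory proteins bind hairpins called iron-responsive elements in messenger RNAs, protecting the transferrin receptor messenger (Tfrc) from decay and blocking translation of the ferritin (Fth1, Ftl1) and ferroportin messengers when iron is scarce.

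The hairpins of 3 genes are shown because Tfrc and Fth1 were among the genes that changed and Slc40a1 was not. A 27-base pattern was sought in the untranslated regions (UTRs) of GENCODE vM21 transcripts on mm10 (GRCm38): a 5-base lower stem with at least 3 pairs, an unpaired C, a fully paired 5-base upper stem and a 6-base loop that begins with CAGTG (in capitals). Tfrc (chr16:32608920-32632794, plus strand) held 4 matches in its 3′ UTR, at chr16:32631220-32631246, chr16:32631599-32631625, chr16:32631664-32631690 and chr16:32631711-32631737, given in that order. Fth1 (chr19:9980598-9985098, plus strand) held 1 in its 5′ UTR at chr19:9982733-9982759, and Slc40a1 (chr1:45908068-45926523, minus strand) held 1 in its 5′ UTR at chr1:45925466-45925492.
Tfrc element 1: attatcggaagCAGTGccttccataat
Tfrc element 2: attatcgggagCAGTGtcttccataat
Tfrc element 3: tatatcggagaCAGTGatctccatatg
Tfrc element 4: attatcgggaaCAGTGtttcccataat
Fth1 element: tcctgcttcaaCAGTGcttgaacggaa
Slc40a1 element: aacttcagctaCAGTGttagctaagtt
The pattern occurred in the 5′ UTR of 9 of 20952 protein-coding genes (0.043%) and in the 3′ UTR of 39 of 21110 (0.185%). Tfrc was the 1 gene with more than 1 match in the 3′ UTR of a transcript. Ftl1, the ferritin light chain, carried a 5′ UTR element at chr7:45459780-45459806 (minus strand).
Ftl1 element: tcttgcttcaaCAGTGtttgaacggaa
The elements shown are not a full list of matches. Other genes named in this report, Smad7 among them, may also hold a match that is not given here. A match is a description of the letters, and the binding of an iron regulatory protein was not measured.

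The values were log2(CPM + 1), where CPM are read counts scaled to the size of each library, from TempO-Seq, in which a pair of detector oligos is ligated on each target RNA and the ligated probe is counted. FROZ libraries held 6.67 to 9.83 M reads (M, mega) on listed genes and FFPE libraries 1.83 to 6.00 M. One read was worth 0.102 to 0.150 CPM in FROZ and 0.167 to 0.547 CPM in FFPE. A library contained 15 to 62 genes at 0 in FROZ and 68 to 1595 in FFPE. There were 5 FFPE libraries with fewer than 3.5 M reads, 3 of them at 198 mg/kg-d and 2 at 313 mg/kg-d. The probes of Trf, Fth1 and Ftl1 were among those that the authors attenuated equally in all samples, so that levels are not compared between genes. The 3 doses share the same 6 control mice. A gene is described as past the threshold when its FDR-adjusted p-value (FDR) from limma, adjusted over all genes of its table, was under 0.05, and as a differentially expressed gene (DEG) when the fold change was also above 2. All changes are given on the log2(CPM + 1) scale, which understates the change of genes near 1 CPM such as Bmp6.

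In FROZ liver, Tfrc and Fth1 were higher and Trf was lower with DCA, while Hamp and Slc40a1 passed no test. At 198 mg/kg-d, 0 of 8 genes passed the threshold (limma; 1 of 8 had an unadjusted p under 0.05), where 1.56% of all genes did and 0.106% were DEGs. At 313 mg/kg-d, 4 genes were higher (Tfrc, Hfe, Bmp6 and Fth1) and 1 was lower (Trf), beside 26.7% of all genes past the threshold. At 427 mg/kg-d, 3 were higher (Tfrc, Fth1 and Bmp6) and 1 was lower (Trf), beside 30.1% of all genes. The number of these genes that were DEGs was 0 at 313 mg/kg-d, where 2.31% of all genes were, and 1 at 427 mg/kg-d (Tfrc), where 3.5% were. The slope on dose passed the threshold for 5 of 8 genes (Tfrc, Fth1, Bmp6 and Hfe upward, Trf downward), beside 32.2% of all genes. The median change of the 8 genes was 0.03, 0.36 and 0.28 at the 3 doses, and that of all genes was 0.07, 0.11 and 0.10.

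The scaling of the libraries decided most calls at 313 mg/kg-d. CPM were rescaled by the median ratio of each library to a geometric mean library. This lowered the median change of all genes by about the 0.11 and 0.10 just given. With that scaling 0 of the 8 genes were higher and 2 lower (Trf and Smad7) at 313 mg/kg-d, beside 21.1% of all genes. At 427 mg/kg-d 3 were higher and 1 lower as before, beside 25.3% of all genes.

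**Figure D1:**
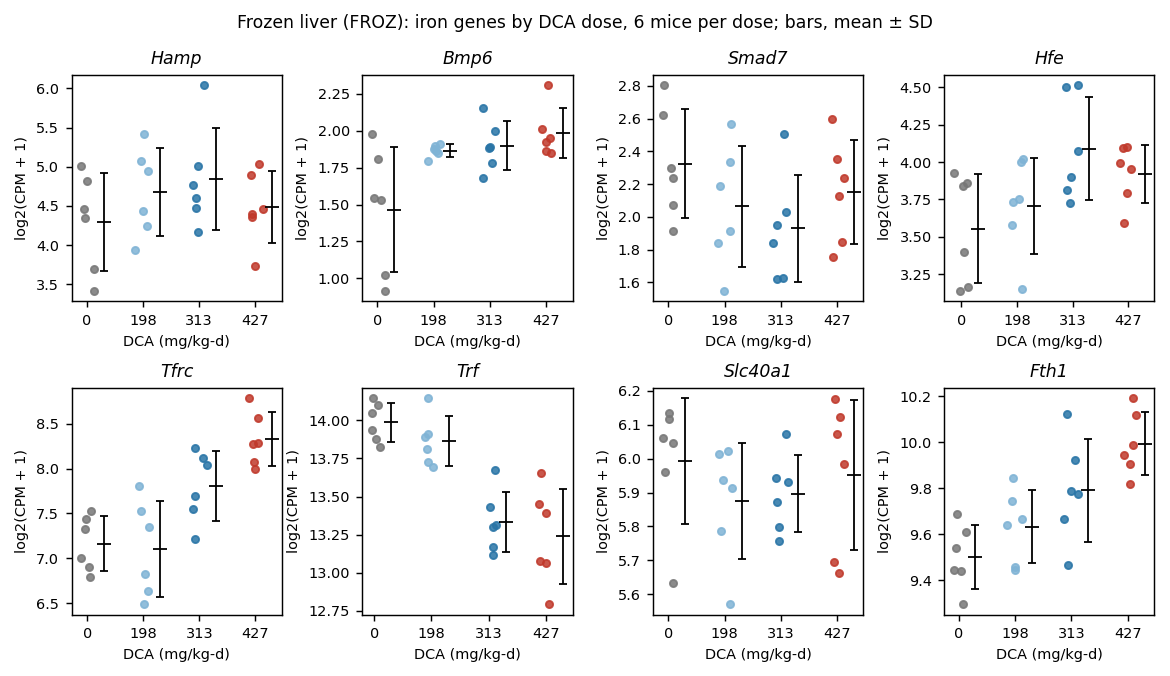
Level of the 8 listed iron genes in each FROZ library, as log2(CPM + 1), against DCA dose in mg/kg-d. Points are mice (6 per dose) and bars show the mean ± SD; Tfrc rises clear of the controls at 427 mg/kg-d, where its lowest library was 7.99 and the highest control 7.52, and Trf falls clear of them at 313 and 427 mg/kg-d.

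Tfrc encodes transferrin receptor 1, which takes up iron-loaded transferrin. In FROZ control liver it ranged from 6.80 to 7.52 with a median of 7.16. The lowest, median and highest libraries were 6.49, 7.09 and 7.81 at 198 mg/kg-d, 7.21, 7.87 and 8.23 at 313 mg/kg-d, and 7.99, 8.28 and 8.79 at 427 mg/kg-d. The 198 mg/kg-d mice spread to both sides of the controls, 5 of 6 mice at 313 mg/kg-d were above every control, and at 427 mg/kg-d the groups did not overlap. The changes were -0.06 ± 0.20 (SE; FDR = 0.920), 0.64 ± 0.20 (FDR = 0.0188) and 1.16 ± 0.20 (FDR = 6.53e-05, limma, n = 6 per group), the last a 2.24-fold increase. The slope was 0.28 ± 0.05 per 100 mg/kg-d (FDR = 0.000184). Without animal 75 the change at 313 mg/kg-d was 0.56 (FDR = 0.0527), and with median-ratio scaling it was 0.50 (FDR = 0.0694).

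Dividing cells and red cell precursors also carry much transferrin receptor, so their markers are given beside it. Of 8 proliferation markers, 4 rose at 313 mg/kg-d (Ccna2, Ccnb1, Mcm2 and Top2a), beside 26.7% of all genes. With median-ratio scaling 3 rose, beside 21.1% of all genes. At 427 mg/kg-d 0 passed the threshold, beside 30.1% of all genes, and Ccnb1 came near it (change 1.125, FDR = 0.0572, limma). The summed level of the 8 was 54.65 to 85.75 CPM in controls, 77.38 to 161.9 CPM at 313 mg/kg-d and 59.24 to 152.2 CPM at 427 mg/kg-d, and 1 marker, Mcm5, was at 0 in some library. Of 7 listed erythroid markers, 3 (Alas2, Hba-a1 and Hba-a2) fell at both doses, beside 26.7% and 30.1% of all genes. Hba-a1 and Hba-a2 had nearly equal changes (-1.095 and -1.079 at 313 mg/kg-d, -0.69 and -0.68 at 427 mg/kg-d), so they may not be separate measurements. The erythroid sum was 61.71 to 131.2 CPM in controls, 32.02 to 58.3 CPM at 313 mg/kg-d and 37.84 to 84.92 CPM at 427 mg/kg-d, with Slc4a1 at 0 in some library. The part of either in the Tfrc result was not tested. In bulk liver, fewer cells of a type and less RNA per cell cannot be told apart.

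Trf encodes transferrin, the plasma iron carrier made by hepatocytes, and lies at chr9:103204001-103230444 (minus strand). FROZ control libraries ranged from 13.82 to 14.15 with a median of 13.99. With DCA, the lowest, median and highest were 13.69, 13.85 and 14.15 at 198 mg/kg-d, 13.12, 13.31 and 13.67 at 313 mg/kg-d, and 12.79, 13.24 and 13.65 at 427 mg/kg-d. All 6 mice at each of the 2 upper doses lay below all 6 controls, whereas the 198 mg/kg-d group overlapped them. The changes were -0.13 ± 0.14 (FDR = 0.697), -0.66 ± 0.14 (FDR = 0.000872) and -0.75 ± 0.14 (SE; FDR = 0.000139, limma), the last a decrease to 0.595 of the control level. None of 5 listed hepatocyte markers passed the threshold in FROZ at any dose, beside 1.56%, 26.7% and 30.1% of all genes. With median-ratio scaling 2 of the 5 were lower at each of the upper doses, beside 21.1% and 25.3% of all genes. Of the 50-base windows of the longest Trf coding transcript, 79.8% also stand in Gm20425, a gene model that overlaps Trf on the same strand and that neither table listed, so that the probe's reads cannot be assigned between them.

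Fth1 encodes the ferritin heavy chain, which oxidises and stores iron. FROZ control libraries ranged from 9.30 to 9.69 (median 9.49). The lowest, median and highest were 9.44, 9.65 and 9.85 at 198 mg/kg-d, 9.46, 9.78 and 10.12 at 313 mg/kg-d, and 9.82, 9.96 and 10.19 at 427 mg/kg-d. The middle dose overlapped the controls, and the highest dose did not. The changes were 0.13 ± 0.10 (FDR = 0.529), 0.29 ± 0.10 (FDR = 0.0311) and 0.49 ± 0.10 (SE; FDR = 0.000382, limma). At 313 mg/kg-d the call was lost in the absence of animal 3, 5, 7, 73 or 75 (lowest change 0.22, highest FDR = 0.0963) and with median-ratio scaling (0.15, FDR = 0.329), and at 427 mg/kg-d it was kept without each mouse of the groups compared and with that scaling. Windows of 50 bases shared with another gene made up 4.01% of the Fth1 transcript.

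Counted by range, 1 of the 8 genes (Trf) did not overlap its controls at 313 mg/kg-d and 3 (Tfrc, Trf and Fth1) did not at 427 mg/kg-d. Among all FROZ genes the shares without overlap were 11.5% and 14.7%.

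Bmp6 encodes the ligand through which liver iron signals to hepatocytes, and lies at chr13:38345107-38500302 (plus strand), where Txndc5 and 4930579J19Rik overlap it on the opposite strand. It was the gene with the fewest FROZ reads, 8 to 35 per library. Control libraries ranged from 0.92 to 1.98 with a median of 1.54, the lowest being animals 3 and 8 with 9 and 8 reads. Treated mice had a lowest, median and highest value of 1.79, 1.87 and 1.91 at 198 mg/kg-d, 1.68, 1.89 and 2.15 at 313 mg/kg-d, and 1.85, 1.94 and 2.31 at 427 mg/kg-d. Every treated mouse lay above the control median, but each dose overlapped the control range. The changes were 0.40 ± 0.15 (FDR = 0.152), 0.43 ± 0.15 (FDR = 0.0299) and 0.52 ± 0.15 (SE; FDR = 0.00842, limma), with a slope of 0.12 ± 0.03 per 100 mg/kg-d (FDR = 0.00572). At 313 mg/kg-d the call was lost without animal 3, 8, 76 or 78 (lowest change 0.32, highest FDR = 0.0964). At 427 mg/kg-d it was kept without each animal in turn, with changes of 0.41 to 0.62.

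Sinusoidal endothelial cells are the main source of liver Bmp6. Of 10 of their markers, 1 (Stab2) fell at 313 and 427 mg/kg-d and 0 rose, beside 26.7% and 30.1% of all genes. With median-ratio scaling 3 and 5 were lower, beside 21.1% and 25.3% of all genes. The summed level of the 10 was 370 to 434.9 CPM in controls and 343.9 to 400.2 CPM at 427 mg/kg-d, with Lyve1 at 0 in some library. Their part in the Bmp6 result was not tested.

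Hfe encodes the haemochromatosis protein, which takes part in iron sensing upstream of Hamp, and lies at chr13:23702034-23710854 (minus strand). In FROZ controls it ranged from 3.14 to 3.93 (median 3.62). With DCA, the lowest, median and highest were 3.15, 3.74 and 4.02 at 198 mg/kg-d, 3.73, 3.99 and 4.52 at 313 mg/kg-d, and 3.59, 3.97 and 4.10 at 427 mg/kg-d. All 6 mice at 313 mg/kg-d were above the control median and 3 were above every control, with overlap at each dose. The changes were 0.15 ± 0.17 (FDR = 0.703), 0.54 ± 0.17 (FDR = 0.0209) and 0.37 ± 0.17 (SE; FDR = 0.108, limma), so that the middle dose alone passed the threshold, and the difference between the doses was not tested. The call at 313 mg/kg-d was lost without animal 4, 8, 73 or 74 (highest FDR = 0.0624), and the slope of 0.11 ± 0.04 per 100 mg/kg-d (FDR = 0.0380) ranged up to an FDR of 0.107 when single animals were left out, passing 0.05 without animal 4, 7, 8, 98 or 102.

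Hamp, the hepcidin gene at chr7:30942368-30944032 (minus strand), is the output of this pathway. FROZ control libraries ranged from 3.41 to 5.01 with a median of 4.40. The lowest, median and highest were 3.94, 4.68 and 5.42 at 198 mg/kg-d, 4.17, 4.69 and 6.04 at 313 mg/kg-d, and 3.74, 4.43 and 5.04 at 427 mg/kg-d. The 4 groups overlapped almost entirely, and the control mice alone covered most of the range. The changes were 0.39 ± 0.30 (FDR = 0.532), 0.55 ± 0.30 (FDR = 0.175) and 0.19 ± 0.30 (SE; FDR = 0.669, limma). The 95% interval at 427 mg/kg-d reached from -0.41 to 0.80, so that neither a modest rise nor a modest fall could be detected with 6 mice. Hamp2, a neighbouring gene that shares 16.6% of the 50-base windows of Hamp, changed by 0.59 ± 0.31 at 427 mg/kg-d (FDR = 0.150).

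Smad7, an inhibitor of BMP signalling that BMP itself induces, was read in FROZ with 14 to 58.9 reads per library. Control libraries ranged from 1.91 to 2.81 (median 2.27). Treated mice had a lowest, median and highest value of 1.55, 2.05 and 2.57 at 198 mg/kg-d, 1.62, 1.89 and 2.51 at 313 mg/kg-d, and 1.76, 2.18 and 2.60 at 427 mg/kg-d. The groups overlapped at each dose. The changes were -0.26 ± 0.19 (FDR = 0.503), -0.40 ± 0.19 (FDR = 0.123) and -0.17 ± 0.19 (SE; FDR = 0.534, limma). With median-ratio scaling the change at 313 mg/kg-d was -0.50 (FDR = 0.0494).

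Slc40a1 encodes ferroportin, the cellular iron exporter. FROZ control libraries ranged from 5.63 to 6.13 with a median of 6.05. With DCA, the lowest, median and highest were 5.57, 5.93 and 6.02 at 198 mg/kg-d, 5.76, 5.90 and 6.07 at 313 mg/kg-d, and 5.66, 6.03 and 6.18 at 427 mg/kg-d. The 4 groups lay in the same narrow range. The changes were -0.12 ± 0.10 (FDR = 0.592), -0.10 ± 0.10 (FDR = 0.529) and -0.04 ± 0.10 (SE; FDR = 0.809, limma), with a 95% interval of -0.25 to 0.17 at 427 mg/kg-d, the narrowest interval of the 4 genes that did not pass there. Kupffer cells, the liver macrophages that export much iron through ferroportin, were marked by 9 listed genes. Of the 9, 6 (Adgre1, C1qa, C1qb, C1qc, Cd5l and Csf1r) fell at 427 mg/kg-d, beside 30.1% of all genes. At 198 and 313 mg/kg-d 0 passed, beside 1.56% and 26.7% of all genes. The summed level of the 9 was 242.9 to 322.7 CPM in controls and 155.2 to 227 CPM at 427 mg/kg-d, and 0 of the 9 were at 0 in any library. In FFPE 0 of 6 listed markers passed at any dose. The FFPE sum was 281.3 to 548.3 CPM in controls and 180 to 269 CPM at 427 mg/kg-d. The part of these cells in the Slc40a1 values was not tested.

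**Figure D2:**
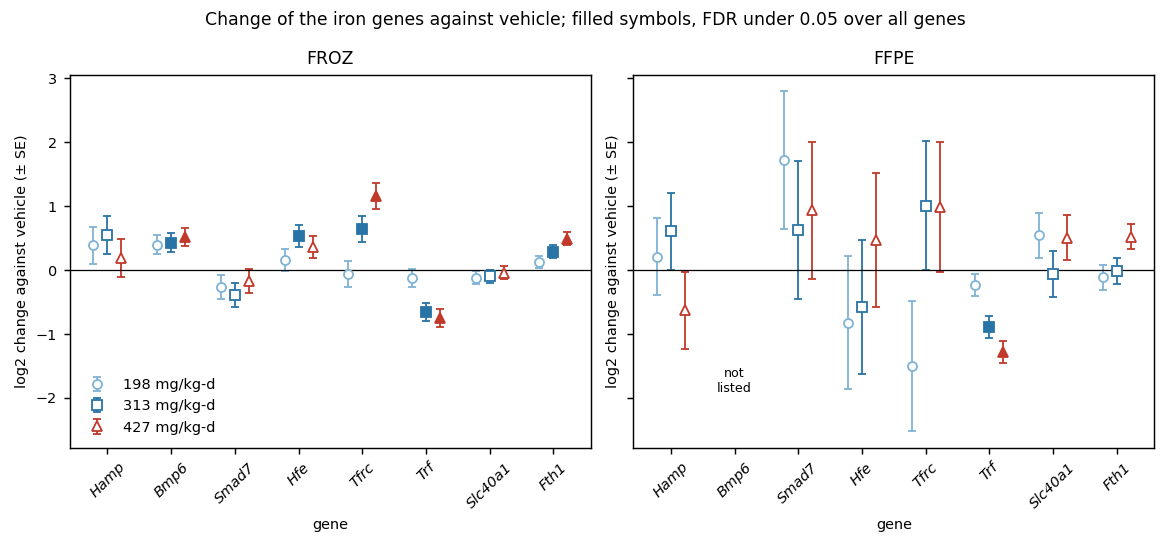
Change of each iron gene against vehicle (log2, ± SE from limma) at 198, 313 and 427 mg/kg-d in FROZ and FFPE; filled symbols passed an FDR of 0.05 over all genes. Trf is filled and below 0 at the 2 upper doses in both tables, and the bars of Smad7, Hfe and Tfrc are much wider in FFPE.

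In FFPE liver, Trf was the 1 gene of the 7 that passed the threshold, and its fitted decreases were larger than in FROZ, a difference that is tested further on. None of the 7 passed at 198 mg/kg-d (limma; 0 of 7 at an unadjusted p under 0.05), where 0.0599% of all genes did and 0.0599% were DEGs. Trf passed at 313 mg/kg-d, beside 1.08% of all genes, and at 427 mg/kg-d, beside 2.41%. It was a DEG at 427 mg/kg-d, where 1.81% of all genes were, and not at 313 mg/kg-d, where 0.809% were. Its slope was the 1 of 7 past the threshold, beside 2.17% of all genes.

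FFPE control libraries of Trf ranged from 12.27 to 12.93 (median 12.82). The lowest, median and highest were 11.83, 12.64 and 12.75 at 198 mg/kg-d, 11.65, 11.87 and 12.09 at 313 mg/kg-d, and 10.97, 11.49 and 11.86 at 427 mg/kg-d. At 313 and at 427 mg/kg-d the groups did not overlap the controls, which held for 1.57% and 4.48% of all FFPE genes. The changes were -0.23 ± 0.17 (FDR = 0.611), -0.88 ± 0.17 (FDR = 0.00299) and -1.28 ± 0.17 (SE; FDR = 5.22e-06, limma), the last a decrease to 0.411 of the control level. The slope was -0.31 ± 0.04 per 100 mg/kg-d (FDR = 1.26e-05). At 313 mg/kg-d the call was lost when the 5 libraries under 3.5 M reads were left out (-0.86, FDR = 0.0644) and when the variance prior had no trend (FDR = 0.103). At 427 mg/kg-d 1 of 4 hepatocyte markers, Apoa1, also fell, beside 2.41% of all genes. The summed level of the 4 was 35460 to 48010 CPM in controls and 23930 to 28930 CPM at 427 mg/kg-d, without overlap. Alb was below every control in all 6 mice but did not pass (FDR = 0.257, limma), while Ttr was above every control in 5 of 6. The part of a general fall of hepatocyte transcripts in the Trf result was not tested.

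Fth1 in FFPE ranged from 9.29 to 9.75 in controls (median 9.64) and from 9.73 to 10.39 at 427 mg/kg-d (median 10.20). In all, 5 of 6 mice at that dose were above every control. The change was 0.52 ± 0.20 (FDR = 0.267, limma), and it passed when the 2 groups were fitted alone (FDR = 0.0142) or with array quality weights (0.56, FDR = 0.00438). Of all FFPE genes, 6.40% and 7.85% passed in these 2 fits, beside 2.41% in the main fit. At 198 and 313 mg/kg-d the change of Fth1 was -0.11 ± 0.20 and -0.01 ± 0.20.

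Tfrc in FFPE was read at 3 or fewer reads in 5 of 24 libraries, of which 4 were at 198 mg/kg-d. Control libraries ranged from 0.29 to 4.82 (median 3.77). Treated mice had a lowest, median and highest value of 0, 0.13 and 5.65 at 198 mg/kg-d, 2.47, 4.67 and 5.93 at 313 mg/kg-d, and 2.85, 4.24 and 5.48 at 427 mg/kg-d. The 198 mg/kg-d mice split into 4 with at most 1 read and 2 with 136.7 and 137.2 estimated reads. The changes were -1.50 ± 1.01 (FDR = 0.565), 1.01 ± 1.01 (FDR = 0.760) and 0.99 ± 1.01 (SE; FDR = 1.00, limma), each with an error too wide to show a change of the size seen in FROZ.

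Hfe and Smad7 behaved likewise, with 3 or fewer reads in 5 and 7 of 24 FFPE libraries and up to 156 and 191 reads in others. Hfe changed by -0.82, -0.57 and 0.48 (each ± 1.05) and Smad7 by 1.72, 0.63 and 0.94 (each ± 1.08) at the 3 doses, and none passed the threshold. Where a library held 0 reads of a gene, the 3 reads that a count of 0 allows correspond to up to 1.64 CPM in the shallowest library, counting error only.

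Hamp in FFPE ranged from 4.07 to 6.33 in controls (median 4.88). With DCA, the lowest, median and highest were 4.61, 5.24 and 6.29 at 198 mg/kg-d, 3.99, 5.69 and 6.63 at 313 mg/kg-d, and 2.18, 4.55 and 5.98 at 427 mg/kg-d. The groups overlapped, and the changes of 0.21, 0.61 and -0.63 (each ± 0.60) did not pass. Slc40a1 ranged from 5.72 to 6.39 in FFPE controls, from 5.93 to 7.50 at 198 mg/kg-d, from 5.34 to 7.03 at 313 mg/kg-d and from 6.21 to 7.28 at 427 mg/kg-d. Its changes of 0.55, -0.06 and 0.51 (each ± 0.35) did not pass either, although 5 of 6 mice at 427 mg/kg-d were above every control.

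**Figure D3:**
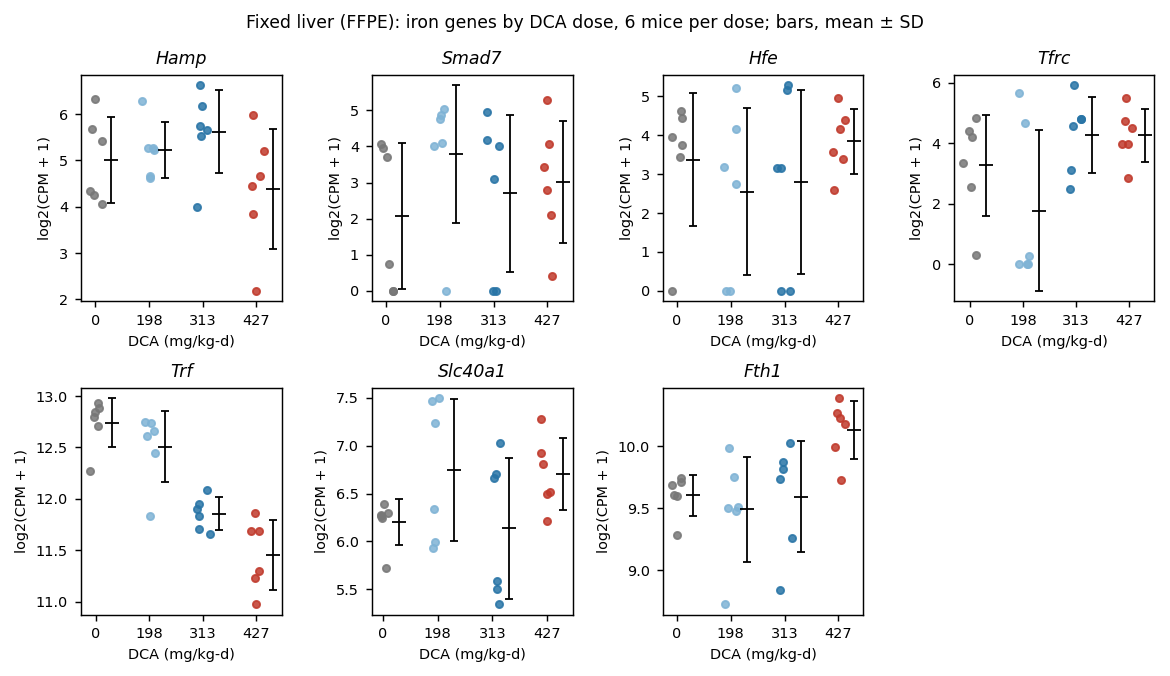
Level of the 7 listed iron genes in each FFPE library, as log2(CPM + 1), against DCA dose in mg/kg-d. Points are mice (6 per dose) and bars show the mean ± SD; Trf falls below all controls at 313 and 427 mg/kg-d, and Smad7, Hfe and Tfrc hold libraries at or near 0.

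Whether the response differed between preservations was tested on the difference between the 2 libraries of each mouse, FFPE minus FROZ. None of the 7 shared genes passed the threshold at any dose (limma; 0 of 7 at an unadjusted p under 0.05 at each dose), beside 0.0303%, 0.0% and 0.0303% of 6591 shared genes at 198, 313 and 427 mg/kg-d. The difference for Trf at 427 mg/kg-d was -0.53 ± 0.26 (FDR = 1.00), with a 95% interval of -1.08 to 0.01. For Fth1 at that dose it was 0.03 ± 0.27 (95% interval -0.52 to 0.59), and for Tfrc -0.18 ± 0.97 (95% interval -2.18 to 1.83), so that for Tfrc the interval admits changes in either direction larger than the FROZ response.

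**Figure D4:**
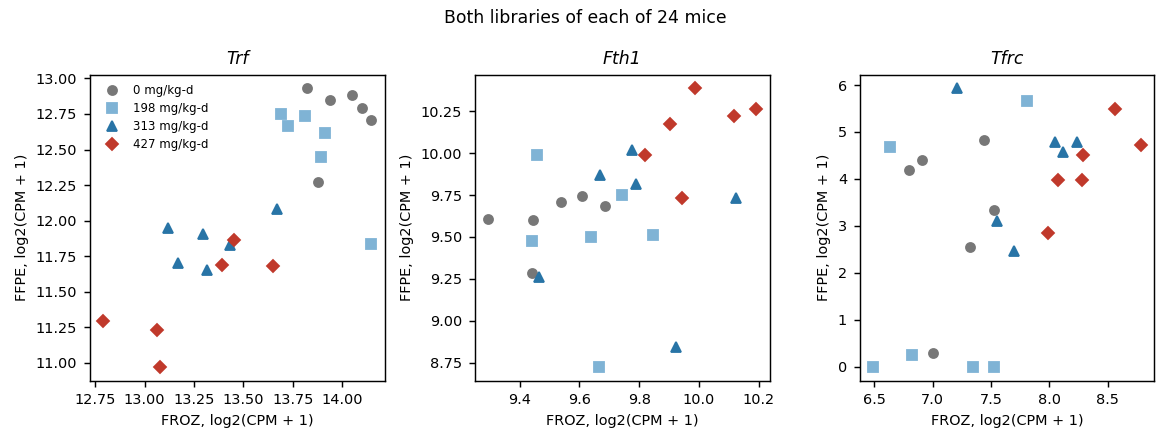
FFPE level against FROZ level of Trf, Fth1 and Tfrc, both as log2(CPM + 1), for each of the 24 mice; symbols mark the DCA dose. Mice at 313 and 427 mg/kg-d lie at the lower left for Trf, and 5 FFPE libraries of Tfrc lie at or near 0 at differing FROZ levels.

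No gene's deviations from its dose mean correlated past the threshold between FROZ and FFPE. Over 24 mice, Pearson's r between the 2 libraries was 0.43 for Smad7 (Spearman's rho 0.40; permutation p = 0.0502 and 0.0693, Benjamini-Hochberg 0.223 and 0.254 over 7 genes; r = 0.35 without the 2 mice farthest from the median) and 0.36 for Slc40a1 (rho 0.38; permutation p = 0.0636 and 0.0726, adjusted 0.223 and 0.254; r = 0.34). For the other 5 genes r lay between 0.03 (Hfe) and 0.21 (Tfrc) and rho between -0.03 (Hamp) and 0.25 (Trf), with adjusted permutation p of at least 0.763 and 0.707, and r without the 2 farthest mice between -0.10 (Fth1) and 0.10 (Hamp). Within FROZ, 4 pairs of genes were examined across mice in the same way. Hamp and Smad7 had r = -0.21 (rho -0.16), Hamp and Tfrc -0.20 (rho -0.21), Hamp and Bmp6 -0.01 (rho -0.05), and Tfrc and Fth1 0.27 (rho 0.28), with adjusted permutation p of 0.518 to 0.975 for r and 0.649 to 0.841 for rho. Without the 2 farthest mice r was -0.35, -0.27, 0.02 and 0.27 in that order.

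Among 74 other genes of iron and haem handling, 66 were listed in FROZ. At 198 mg/kg-d 1 was higher (Acvr1) and 1 lower (Lrp1), at 313 mg/kg-d 15 were higher and 5 lower, and at 427 mg/kg-d 17 were higher and 7 lower. These were 3.03%, 30.3% and 36.4% of the 66 at the 3 doses, beside 1.56%, 26.7% and 30.1% of all FROZ genes. With median-ratio scaling 7 were higher and 5 lower at 313 mg/kg-d, beside 21.1% of all genes. At 427 mg/kg-d 9 were then higher and 10 lower, beside 25.3%, so that the excess of higher genes depended on the scaling. The median change of the 66 was 0.11 and 0.14 at the 2 upper doses, against 0.11 and 0.10 for all genes. None was a DEG. In FFPE 51 were listed, and 2 were higher (Cpox and Ftl1) and 1 lower (Hpx) at 427 mg/kg-d, or 5.88% beside 2.41% of all FFPE genes. Median-ratio scaling lowered the median change of all FFPE genes from 0.18 to 0.07. With it 0 were higher and 3 lower (Hpx, Cp and Tmprss6, with FDR = 0.000817, 0.0105 and 0.0341, limma), beside 2.47% of all FFPE genes, so that the balance turned round.

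Of 18 listed genes of BMP-SMAD signalling and its modifiers, 3 were higher and 2 lower at 313 mg/kg-d and 2 higher and 1 lower at 427 mg/kg-d, beside 26.7% and 30.1% of all genes. Hjv, the BMP co-receptor hemojuvelin that raises Hamp, increased by 0.61 ± 0.09 and 0.70 ± 0.09 (SE; FDR = 2.87e-05 and 2.33e-06, limma) at these doses. Tmprss6, the protease matriptase-2 that restrains Hamp, fell by 0.58 and 0.42 on the log2 scale (FDR = 3.04e-05 and 0.000780). Both calls held with median-ratio scaling. Of 9 genes of interleukin 6 and STAT3 signalling and hepatocyte factors, 2 were higher and 2 lower at 427 mg/kg-d (30.1% of all genes passed there). With median-ratio scaling 1 was higher and 2 lower, beside 25.3% of all genes. Creb3l3, a liver transcription factor that can activate Hamp, rose by 0.62 ± 0.10 (FDR = 2.15e-05), and Stat3, which carries the inflammatory signal to Hamp, fell by 0.63 (FDR = 0.000373).

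Of the 3 genes of the iron regulatory proteins, 2 were higher and 0 lower at 427 mg/kg-d, beside 30.1% of all genes past the threshold. With median-ratio scaling 1 was higher and 1 lower, beside 25.3% of all genes. Fbxl5, the iron-sensing ligase subunit that removes iron regulatory protein 2, rose by 0.43 ± 0.10 (FDR = 0.00265, limma). Ireb2, which encodes that protein, rose by 0.26 ± 0.10 (FDR = 0.0440), a call that was lost with median-ratio scaling (FDR = 0.481). Among 4 genes of ferritin and iron chaperones, 3 were higher and 0 lower at 313 and at 427 mg/kg-d, beside 26.7% and 30.1% of all genes. With median-ratio scaling 1 was higher and 0 lower at each, beside 21.1% and 25.3% of all genes. Ftl1 rose by 0.83 ± 0.12 and 0.80 ± 0.12 in FROZ (FDR = 8.46e-06 and 6.60e-06) and by 0.82 ± 0.22 in FFPE at 427 mg/kg-d (FDR = 0.0331, and 0.0539 with median-ratio scaling). Of the 50-base windows of the Ftl1 transcript, 78.9% stand in other genes or pseudogenes, so its reads are uncertain. Pcbp1, a chaperone that delivers iron to ferritin, rose by 0.29 ± 0.07 at 427 mg/kg-d (FDR = 0.00154, and 0.118 with median-ratio scaling).

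Of 12 listed genes of iron, haem and haptoglobin transport, 0 were higher and 3 were lower at 427 mg/kg-d, or 25.0% beside 30.1% of all genes. With median-ratio scaling 4 were lower, beside 25.3% of all genes. Cp, the plasma ferroxidase ceruloplasmin, fell by 0.53 at 313 mg/kg-d (FDR = 0.00140, limma) and by 0.76 at 427 mg/kg-d (FDR = 1.57e-05). Lrp1, the receptor that clears haem bound to hemopexin, fell by 0.47, 0.32 and 0.43 at the 3 doses (FDR = 0.000569, 0.00111 and 2.23e-05). Hpx, the hemopexin gene, was lower by the same test at 427 mg/kg-d in both tables, with a change of -0.87 ± 0.18 in FROZ (FDR = 0.000505) and -0.99 ± 0.21 in FFPE (FDR = 0.00339). It is named after its values were seen.

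Haem synthesis and breakdown gave 3 higher and 1 lower of 13 listed genes at 427 mg/kg-d, or 30.8% beside 30.1% of all genes. With median-ratio scaling 2 were higher and 2 lower, beside 25.3% of all genes. Cpox, coproporphyrinogen oxidase of the haem pathway, rose by 0.83 ± 0.13 and 0.96 ± 0.13 in FROZ at the 2 upper doses (FDR = 4.69e-05 and 3.43e-06, limma) and by 0.97 ± 0.26 in FFPE at 427 mg/kg-d (FDR = 0.0316, and 0.0600 with median-ratio scaling). Hmox2, the constitutive haem oxygenase, fell by 0.47 at 427 mg/kg-d (FDR = 0.000125). Of 7 listed genes of mitochondrial iron import and iron-sulphur cluster assembly, 5 were higher and 0 lower at 427 mg/kg-d (30.1% of all genes passed in either direction). With median-ratio scaling, where 25.3% of all genes passed, 2 of the 5 passed. Those were Glrx5, a cluster transfer protein (0.62 ± 0.15, FDR = 0.00279), and Slc25a37, the mitochondrial iron importer mitoferrin-1 (0.61 ± 0.17, FDR = 0.00613).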

How the data were processed

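TempO-Seq was run on FROZ and FFPE liver of 24 mice. The authors aligned reads to mm10 (STAR 2.6 and Partek are named in the submitters' processing notes) and deposited log2 values of CPM plus an offset of 1, in 1 table per preservation. Whole reads were estimated from the steps of low values (96.5 to 97.5% whole in FROZ and 85.7 to 95.8% in FFPE, tolerance 0.1 read). They gave the depth, the reads per gene and the limit of 3 reads. The fits used the deposited log2 values, a unit that calls for limma. The FROZ table repeated 2 gene names. Doses were compared with vehicle in limma 3.58.1 (R 4.3.3) with a trended variance prior over the 24 libraries of a table, and the slope on dose in a second fit. FFPE minus FROZ differences were fitted with the mouse as the block, since both libraries came from the same animal. Deviations of the 2 libraries from their group means correlated with a median r of 0.128 over 4815 genes, and 21 of 24 mice matched their own FFPE library best. P-values were adjusted over all genes. The labels give no batch. Correlations used 100000 permutations of deviations from dose means. Sequences came from GENCODE vM21 transcripts, and promoter sequences are not reported here. Position of the probes on each gene was not given in the sources used here. The genes and gene lists were chosen with earlier results of these data known. Named pathway genes are any DEG and, per list, the 2 genes with the lowest FDR at 427 mg/kg-d in FROZ. Alternatives covered offset, scaling, filter, prior, weights, the libraries fitted and single animals.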

Additional observations from a re-analysis of the deposited data

Results flagged for a closer look

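In 8 of 60 groups of 6 libraries, 1 library stood apart from the other five by Dixon's ratio (gap to the nearest library over the range), which chance does in about 1 of 20 groups. In FROZ, Bmp6 reached 2.31 in animal 97 at 427 mg/kg-d (next highest 2.01), and Slc40a1 was 5.634 in control animal 4 (next lowest 5.961). In FFPE controls, Fth1 was 9.285 in animal 7, Slc40a1 5.717 in animal 5, Trf 12.274 in animal 3 and Hfe 0.0 in animal 3. In FFPE at 198 mg/kg-d, Trf was 11.835 in animal 53 and Smad7 was 0.0 in animal 54. All values are log2(CPM + 1). Without animal 97 the call for Bmp6 at 427 mg/kg-d was kept, and without animal 3 those for Trf in FFPE at 313 and 427 mg/kg-d were kept.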

How the results depend on the processing

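At 313 mg/kg-d in FROZ the 5 iron genes past the threshold became 2 with median-ratio scaling (21.1% of all genes passed). They became 3 when the 2 groups were fitted alone (26.1% of all genes), and 3 to 5 without single animals. The count at 427 mg/kg-d was 4 without each animal, and that of slopes 4 to 5. In FFPE the count at 313 mg/kg-d was 0 with a variance prior without trend, where 0.52% of all genes passed. It was also 0 without the 5 libraries under 3.5 M reads (an alternative chosen after seeing the data). At 427 mg/kg-d the count was 2 with array weights, beside 7.85% of all genes, and 2 for the 2 groups alone, beside 6.40%. The main fit called 2.41% of all genes there. Values far from the threshold changed sign for Fth1 in FFPE with array weights (0.0657 at 198 and 0.0440 at 313 mg/kg-d) and without the shallow libraries (0.14 at 313 mg/kg-d), for Hfe (-0.0266) and Smad7 (-0.0398) in FFPE at 427 mg/kg-d with array weights, and for the FFPE minus FROZ difference of Tfrc at 427 mg/kg-d with an offset of 0.1 (0.15). The correlation of Hamp with Bmp6 became 0.0215 with median-ratio scaling and 0.0169 without the 2 farthest mice, and the FROZ to FFPE correlations became -0.0974 for Tfrc, -0.0753 for Hfe and -0.0989 for Fth1 without them. Without the mouse as block (no pairing), 0 of 7 responses differed between FFPE and FROZ at each dose, as with it, so the block changed no call. The cause of these changes was not tested. Pairs of Hamp or Smad7 with Id1 were not run. Tfrc, Hfe and Smad7 had 3 or fewer reads in 5, 5 and 7 of 24 FFPE libraries, and these were not only the shallow ones: Tfrc had 1 read in a library of 5.18 M reads (animal 50) and 137.2 in one of 2.78 M (animal 54). Bmp6 had 8 to 35 reads in FROZ libraries.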
